A study of Mus musculus with 6 samples.

Results

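Transcripts of neutrophil granules and of neutrophil precursors were examined in mouse bone marrow derived macrophages given RIP1i, an agent named for the kinase RIP1, or DMSO, the solvent control. The set held 35 genes, chosen by symbol from the 52459 genes of the deposited tables, and 34 of them had enough reads for a test. All 6 libraries came from C57BL/6 marrow cells cultured with GM-CSF, and RIP1i or DMSO was present overnight from day 7, in 3 libraries each. Neither the compound behind RIP1i nor a dose is given. Whether replicates came from separate cultures or animals is not stated, so p-values measure only the spread between libraries, possibly a technical one. The comparison asks how the macrophage transcriptome differs after RIP1i.

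Neutrophils arise in the marrow from myeloid progenitors and fill their granules in a fixed sequence. Promyelocytes make the azurophil (primary) granules with myeloperoxidase and serine proteases, myelocytes and metamyelocytes make the specific (secondary) granules with lactoferrin and cathelicidin, and maturing cells switch on surface receptors and cytosolic S100 proteins. Granule transcripts are largely shut off once a granule class has been filled, so that RNA of azurophil enzymes marks precursors and not mature neutrophils. GM-CSF is a growth factor for macrophages and granulocytes, and cultures of this kind start from marrow that holds granulocyte precursors. In bulk RNA, fewer cells of a type and less RNA per cell cannot be told apart.

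Promoters of a few members are shown because their levels ran together or apart across libraries (values below), and because several of them lie close together in the genome. Ngp, Camp and Ltf, all encoding specific granule proteins, lie on chromosome 9 with gaps of 570 kb between Camp and Ngp and 596 kb between Ngp and Ltf in GENCODE M21 (GRCm38, the build called mm10). Prtn3 and Elane, encoding azurophil serine proteases, are neighbours on chromosome 10 with a gap of 3.07 kb, and S100a8 and S100a9 are neighbours on chromosome 3 with a gap of 22.6 kb. Each run below is the 250 bases before the RefSeq transcription start (GRCm38.p6), 5′ to 3′ on the gene's own strand. Capitals mark the letters TTGCNNAA or TTNNGCAA, a C/EBP-type motif, and GAGGAA or TTCCTC, a PU.1-type motif, read on both strands, and no base was shared by motifs.
Ngp promoter, chr9:110419558-110419807, plus strand: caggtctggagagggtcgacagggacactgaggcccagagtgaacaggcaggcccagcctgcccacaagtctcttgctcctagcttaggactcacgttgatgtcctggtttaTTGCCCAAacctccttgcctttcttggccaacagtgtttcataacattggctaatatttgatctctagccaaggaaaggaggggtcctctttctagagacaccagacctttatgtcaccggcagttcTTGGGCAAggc
Camp promoter, chr9:109849457-109849706, minus strand: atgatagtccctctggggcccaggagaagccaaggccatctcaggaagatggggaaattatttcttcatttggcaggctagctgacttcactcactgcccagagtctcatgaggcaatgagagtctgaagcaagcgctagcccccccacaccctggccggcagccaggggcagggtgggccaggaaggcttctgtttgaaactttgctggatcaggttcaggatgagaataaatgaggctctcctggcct
Ltf promoter, chr9:111019042-111019291, plus strand: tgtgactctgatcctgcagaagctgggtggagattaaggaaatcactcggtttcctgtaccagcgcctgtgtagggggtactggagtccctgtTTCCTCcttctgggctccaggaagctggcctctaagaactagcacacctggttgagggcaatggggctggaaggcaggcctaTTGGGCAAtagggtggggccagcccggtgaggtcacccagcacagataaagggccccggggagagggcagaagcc
Prtn3 promoter, chr10:79879417-79879666, plus strand: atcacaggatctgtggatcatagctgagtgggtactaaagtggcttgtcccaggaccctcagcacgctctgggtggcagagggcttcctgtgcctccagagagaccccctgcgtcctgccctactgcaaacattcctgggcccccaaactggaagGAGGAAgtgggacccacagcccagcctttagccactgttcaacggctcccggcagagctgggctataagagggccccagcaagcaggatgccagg
Elane promoter, chr10:79886062-79886311, plus strand: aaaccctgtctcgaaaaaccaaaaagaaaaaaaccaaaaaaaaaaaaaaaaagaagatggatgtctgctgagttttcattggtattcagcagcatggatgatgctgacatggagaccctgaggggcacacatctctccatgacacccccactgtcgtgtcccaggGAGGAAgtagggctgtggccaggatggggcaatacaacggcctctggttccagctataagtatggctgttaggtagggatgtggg
Cd177 promoter, chr7:24760312-24760561, minus strand: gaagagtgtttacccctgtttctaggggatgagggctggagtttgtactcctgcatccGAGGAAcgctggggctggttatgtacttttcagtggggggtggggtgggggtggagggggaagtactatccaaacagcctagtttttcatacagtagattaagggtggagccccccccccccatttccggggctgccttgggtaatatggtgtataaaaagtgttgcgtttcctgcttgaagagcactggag
The Ngp promoter held the C/EBP letters at -138 and -11 relative to the start, and the Ltf promoter at -75 together with the PU.1 letters at -157. Neither motif was in the Camp window. Prtn3 and Elane had the PU.1 letters at -95 and -85, and Cd177 had them at -192. Of 32 promoters listed for 30 members, 10 (31.3%) held the C/EBP letters and 18 (56.3%) the PU.1 letters, against 9.56% and 23.3% of all 32851 promoters of the same length. The letters TGTGGT or ACCACA, a RUNX-type motif, were in 6 (18.8%), against 14.0% of all promoters. These matches describe letters and are not binding sites shown by the data.

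The members differed widely in level per transcript length. By mean FPKM (reads scaled for gene length and library) over the 6 libraries, Anxa1 was highest at 499, followed by S100a9 at 341, S100a8 at 187 and Ngp at 55.7. In all, 13 members had a mean of at least 10 FPKM and 18 had a mean under 3 FPKM. The maturing and mature class lay at both ends of this order, with S100a9, S100a8, Wfdc21 (55.0 FPKM), Mcemp1 (21.5 FPKM), Ifitm6 (16.03 FPKM) and Stfa2l1 (11.9 FPKM) high and Ly6g, Retnlg and Cxcr2 low. Ly6g, a surface antigen of mouse neutrophils, had 40, 39 and 25 counts in RIP1i replicates 1 to 3 and 40, 17 and 45 counts in DMSO replicates 1 to 3. Retnlg, encoding a resistin-like protein of mature neutrophils, had 2, 5 and 7 counts in RIP1i libraries and 4, 1 and 13 counts in DMSO libraries and was the member not tested. Cxcr2, the chemokine receptor that draws neutrophils to tissue, averaged 0.973 ± 0.313 FPKM in RIP1i and 0.957 ± 0.291 FPKM in DMSO (SD, n = 3 each). Ly6g, Retnlg and Cxcr2 were thus low, and none of them was at 0 in any library. All 35 members together made up 0.225, 0.243 and 0.211% of the CPM (counts scaled to library size) in RIP1i replicates 1 to 3 and 0.213, 0.198 and 0.236% in DMSO replicates 1 to 3, and most of that was Anxa1.

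**Figure D1:**
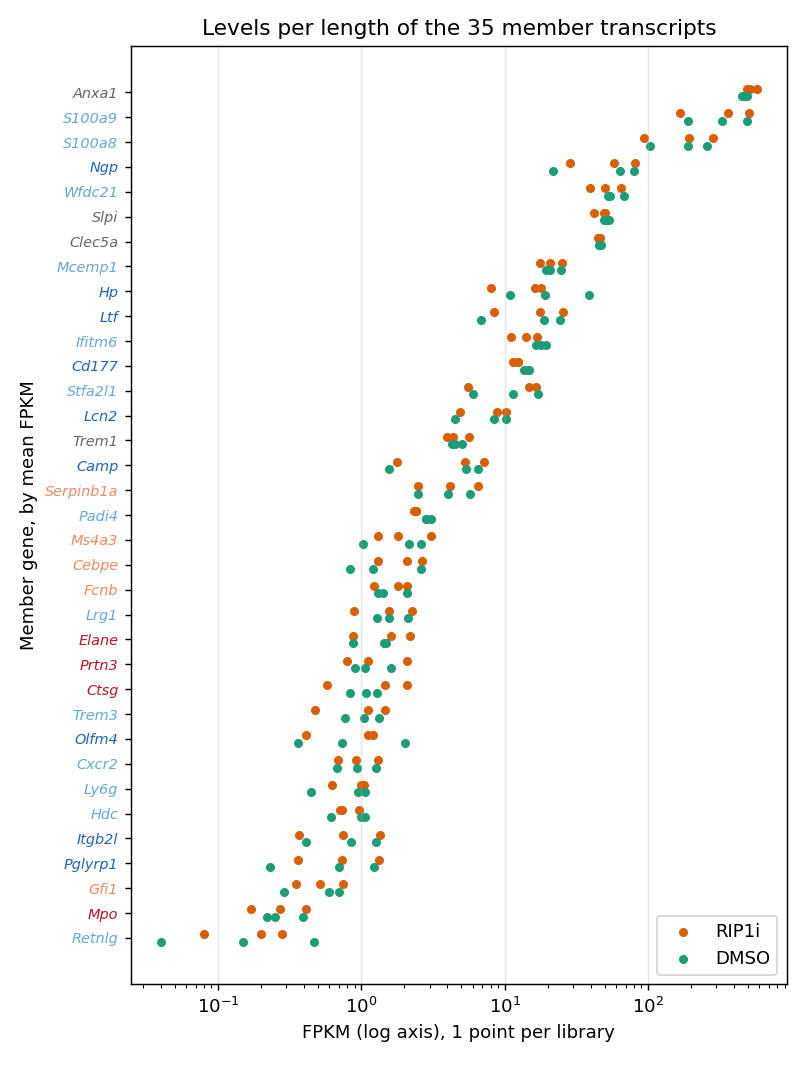
FPKM of each of the 35 members on a log axis, with 1 point per library, RIP1i points drawn above DMSO points, and genes ordered by mean FPKM with names coloured by role (red azurophil, orange precursor, dark blue specific granule, light blue maturing or mature, grey shared with macrophages). Anxa1, S100a9 and S100a8 stand highest, Mpo and Retnlg lowest, and the points of the 2 groups lie over each other for most genes.

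Library totals ran from 40729238 to 42378138 counts in RIP1i and from 40264902 to 44862310 counts in DMSO. Macrophage marker genes summed to 45188 to 54394 CPM in RIP1i and 51755 to 59471 CPM in DMSO, with 10 of 10 tested. Most of that sum was 1 gene, Lyz2, at 39866 to 49299 CPM in RIP1i and 46366 to 54100 CPM in DMSO. The other markers did not all follow the sum, which was lowest in RIP1i replicate 2. Adgre1 and Mrc1 were highest in that library, and Csf1r and Cd14 were lowest in it. The erythroid list (8 genes, 0 tested) summed to between 0.499 and 0.521 CPM in RIP1i and between 0.552 and 0.630 CPM in DMSO, and the lymphoid list (8 genes, 2 tested) to at most 2.18 CPM in RIP1i and 2.25 CPM in DMSO. Markers of stromal cells (8 of 8 tested) varied most, at 232, 79.8 and 178 CPM in RIP1i replicates 1 to 3 and 200, 350 and 84.6 CPM in DMSO replicates 1 to 3. Over 14857 tested genes the deviation of RIP1i replicate 2 from its group mean went with that of DMSO replicate 3 (Pearson r = 0.69 across genes, which are not independent replicates), and that of RIP1i replicate 3 with that of DMSO replicate 2 (r = 0.46). The library differences described next are therefore not restricted to the granule genes.

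No member passed the test of RIP1i against DMSO. By the quasi-likelihood test of edgeR, 0 of 34 members and 0 of 14857 genes (0%) had an adjusted p under 0.05. At an unadjusted p under 0.05 there were 4 members, against 6.21% of all tested genes, and 3 of them, Cd177, Padi4 and Ifitm6, lay lower in RIP1i, against 2.62%. DESeq2 and limma-voom called 0 members and had 4 members each at an unadjusted p under 0.05. Of the members 20 were fitted higher and 14 lower in RIP1i, against 49% of all tested genes fitted lower, and the median log2 fold change was 0.024 for members and 0.0025 for all tested genes. The number fitted higher hung on single libraries, at 4 when RIP1i replicate 2 was left out and 6 when DMSO replicate 2 was, but 26 when replicate 3 of either group was. With both RIP1i replicate 2 and DMSO replicate 2 left out, it was 3, and 10 members had an unadjusted p under 0.05, against 8.26% of all genes tested in that fit. That omission was chosen after the values were seen and takes away the top RIP1i and the bottom DMSO library for most granule genes, so these counts are fixed in part by the choice. The 95% interval of the fold change lay within 2-fold in either direction for 20 members and within 1.5-fold for 8 members, so for the other members differences of 2-fold were not resolved.

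The azurophil enzymes stood low, at mean levels from 0.285 FPKM for Mpo to 1.41 FPKM for Elane. Mpo, encoding myeloperoxidase, which makes hypochlorous acid, had 0.917, 1.401 and 0.604 CPM in RIP1i replicates 1 to 3 and 0.854, 0.747 and 1.35 CPM in DMSO replicates 1 to 3. Elane, encoding neutrophil elastase, had 1.59, 2.14 and 0.869 CPM in RIP1i and 1.46, 0.871 and 1.41 CPM in DMSO. Both genes were highest in RIP1i replicate 2 and the groups overlapped. Prtn3, encoding proteinase 3, had 1.93, 3.59 and 1.401 CPM in RIP1i and 1.87, 1.57 and 2.78 CPM in DMSO. Ctsg, encoding the protease cathepsin G, had 1.51, 2.16 and 0.604 CPM in RIP1i and 1.12, 0.871 and 1.33 CPM in DMSO, and RIP1i replicate 3 was its lowest library and RIP1i replicate 2 its highest. The log2 fold changes were -0.017 for Mpo, 0.29 for Elane, 0.15 for Prtn3 and 0.36 for Ctsg, with standard errors from 0.34 to 0.42 and edgeR adjusted p from 0.896 to 0.993. Counts in this class ran from 25 to 151, which by counting alone gives an SD of 0.16 to 0.24 on the log2 scale. Within-group SDs of log2(CPM + 0.5) were 0.35 to 0.48. The 0.5 added to CPM narrows the spread of genes at such low levels, and the counting SD has nothing added. The 2 kinds of SD are therefore not on the same scale.

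Genes of the precursor stage followed the same libraries. Serpinb1a, encoding an inhibitor of the granule proteases, had 9.67, 14.98 and 5.80 CPM in RIP1i and 9.38, 5.72 and 13.1 CPM in DMSO. Ms4a3, a membrane protein gene of granulocyte and monocyte progenitors, had 3.42, 5.72 and 2.46 CPM in RIP1i and 4.07, 1.94 and 4.88 CPM in DMSO. In both, RIP1i replicate 2 and DMSO replicate 3 were high, RIP1i replicate 3 and DMSO replicate 2 were low, and the groups overlapped. Cebpe, encoding the transcription factor needed for specific granules, had 2.58, 3.25 and 1.64 CPM in RIP1i and 1.51, 1.05 and 3.23 CPM in DMSO, a log2 fold change of 0.36 ± 0.42 (SE, edgeR adjusted p = 0.897). Gfi1, a repressor needed for neutrophil formation, had 1.66, 2.37 and 1.135 CPM in RIP1i and 1.91, 0.921 and 2.23 CPM in DMSO. Fcnb, encoding the lectin ficolin B, had 2.43, 2.78 and 1.67 CPM in RIP1i and 1.91, 1.74 and 2.78 CPM in DMSO. Both had overlapping groups and the library order of Serpinb1a. The 5 genes of this class were all fitted higher in RIP1i by 0.025 to 0.36 on the log2 scale, and none passed. Over all genes, 7571 of 14857 were fitted higher. The 5 genes moved together, with a median Pearson r of 0.91 over their pairs. With libraries left out, the group difference in their mean level ran from -0.13 to 0.37.

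The specific granule genes spread furthest between libraries. Ngp, encoding neutrophilic granule protein, had 70.9, 99.8 and 35.5 CPM in RIP1i replicates 1 to 3 and 78.3, 26.6 and 97.8 CPM in DMSO replicates 1 to 3. Ltf, encoding the iron-binding protein lactoferrin, had 60.7, 87.6 and 29.5 CPM in RIP1i and 64.9, 23.9 and 83.6 CPM in DMSO. Camp, encoding the antimicrobial peptide cathelicidin, had 4.02, 5.41 and 1.35 CPM in RIP1i and 4.09, 1.19 and 4.91 CPM in DMSO. These genes, whose promoters are printed above, had the same order of libraries within each group, and their groups overlapped. Their log2 fold changes were 0.023 for Ngp, 0.043 for Ltf and 0.075 for Camp, each with a standard error of at least 0.49, and that of Ngp was -0.36 without RIP1i replicate 2 and likewise without DMSO replicate 2. Lcn2, encoding the siderophore-binding lipocalin, had 23.5, 26.7 and 12.9 CPM in RIP1i and 22.2, 11.9 and 26.7 CPM in DMSO. Pglyrp1, a peptidoglycan-binding protein gene, had 1.34, 2.45 and 0.676 CPM in RIP1i and 1.28, 0.423 and 2.23 CPM in DMSO. Both were lowest in DMSO replicate 2, with overlapping groups. Olfm4, encoding olfactomedin 4, had 1.83, 1.97 and 0.676 CPM in RIP1i and 1.21, 0.597 and 3.29 CPM in DMSO. Itgb2l, an integrin beta chain gene, had 2.21, 3.99 and 1.09 CPM in RIP1i and 2.52, 1.22 and 3.69 CPM in DMSO. Olfm4 and Itgb2l again had DMSO replicate 3 as the highest DMSO library, and their groups overlapped. The ratio of Ngp to Ltf in FPKM stayed between 3.22 and 3.39 in RIP1i and between 3.14 and 3.41 in DMSO while Ngp spanned 3.75-fold and Ltf 3.67-fold in CPM over the 6 libraries.

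**Figure D2:**
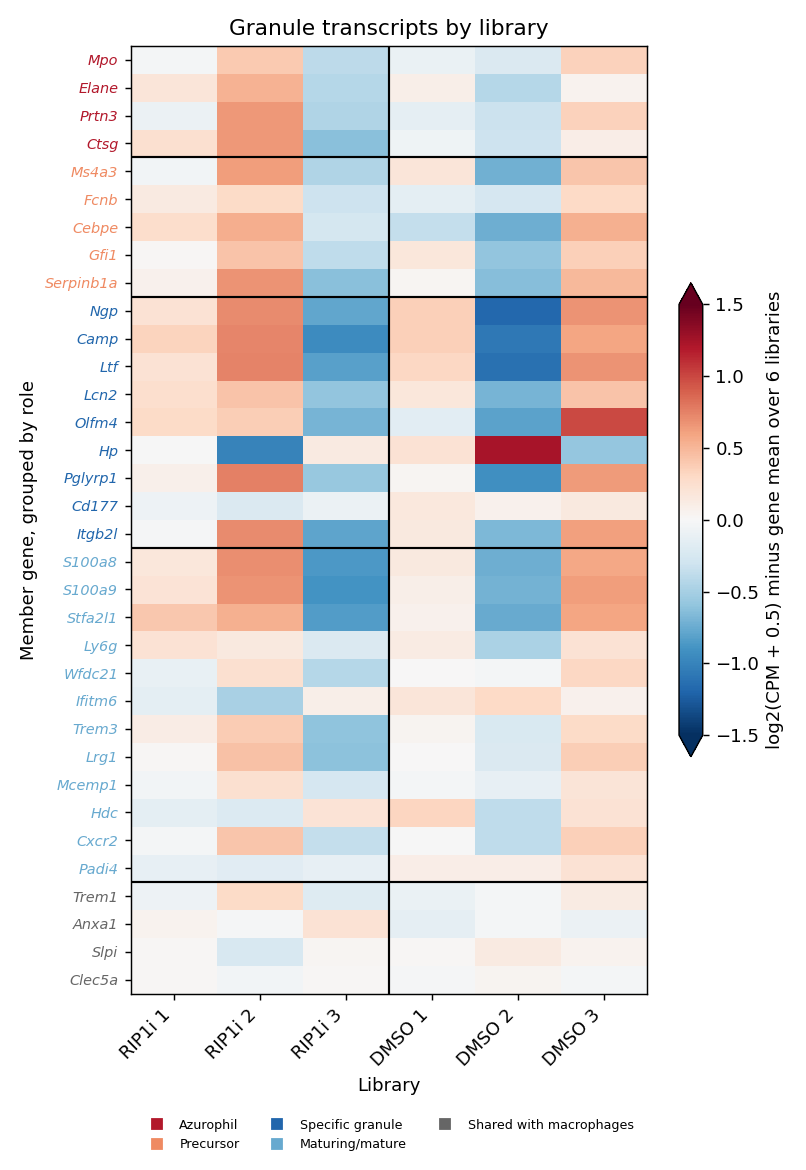
Deviation of log2(CPM + 0.5) from each gene's mean over the 6 libraries (colour, red high and blue low) for the 34 tested members in rows, grouped by role, and the RIP1i and DMSO libraries in columns. RIP1i replicate 2 and DMSO replicate 3 are red and RIP1i replicate 3 and DMSO replicate 2 blue for most granule genes, Hp shows the opposite colours, and Cd177, Padi4, Anxa1, Slpi and Clec5a stay pale.

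Hp and Cd177, placed with the specific granule genes, did not follow that order. Hp, encoding the haemoglobin-binding protein haptoglobin, had 26.3, 12.8 and 29.1 CPM in RIP1i replicates 1 to 3 and 30.7, 62.4 and 17.4 CPM in DMSO replicates 1 to 3. It was thus highest where Ngp and Ltf were lowest within each group, and its median Pearson r with the other 33 tested members over the 6 libraries was -0.79. Its log2 fold change was -0.69 ± 0.47 (SE, edgeR adjusted p = 0.819), and -0.090 without DMSO replicate 2. Hp and the summed stromal markers were both highest in DMSO replicate 2 and lowest in RIP1i replicate 2. Within RIP1i, the stromal sum was highest in replicate 1 and Hp in replicate 3. The macrophage markers Csf1r, Lyz2 and Cd14 kept the order of Hp in both groups, and 4 of 10 macrophage markers kept that of Ngp. Cd14 had 209, 120 and 258 CPM in RIP1i and 218, 269 and 155 CPM in DMSO. The part of stromal cells or macrophages in the level of Hp was not tested. Cd177, a surface antigen of neutrophils that in humans holds proteinase 3 at the cell surface, had 35.5, 32.3 and 35.3 CPM in RIP1i and 42.0, 39.2 and 41.3 CPM in DMSO. All RIP1i libraries lay under all DMSO libraries, which held for 2 members against 6.18% of all tested genes. Its log2 fold change was -0.25 ± 0.053 (SE) with an edgeR adjusted p of 0.777, from 0.257 to 0.998 under the alternatives. The median r of Cd177 with the 7 other specific granule genes, Hp left out, was -0.052.

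Genes of maturing and mature neutrophils split into those that followed the granule order and those that did not. S100a8 had 135, 196 and 66.0 CPM in RIP1i replicates 1 to 3 and 133, 72.2 and 179 CPM in DMSO replicates 1 to 3. S100a9, which encodes its partner in the heterodimer calprotectin, had 189, 263 and 88.0 CPM in RIP1i and 174, 100 and 255 CPM in DMSO. The 2 genes kept a nearly constant ratio, S100a9 to S100a8 in FPKM being 1.77 to 1.86 in RIP1i and 1.74 to 1.89 in DMSO, and the groups overlapped in both. Stfa2l1, a gene of the stefin A cysteine protease inhibitors, had 6.198, 6.79 and 2.32 CPM in RIP1i and 4.77, 2.49 and 7.09 CPM in DMSO, in the same order, but its reads may be shared with near-identical stefin genes. Lrg1, encoding a leucine-rich glycoprotein of granules, had 2.13, 3.04 and 1.21 CPM in RIP1i and 2.11, 1.74 and 2.87 CPM in DMSO. Cxcr2 had 2.80, 3.99 and 2.13 CPM in RIP1i and 2.86, 2.09 and 3.82 CPM in DMSO. These genes kept the order with overlapping groups. Trem3, a receptor gene of myeloid cells, had 1.12, 1.45 and 0.483 CPM in RIP1i and 1.03, 0.772 and 1.33 CPM in DMSO. Wfdc21, a whey acidic protein family gene, had 21.8, 27.95 and 17.4 CPM in RIP1i and 23.7, 23.1 and 29.3 CPM in DMSO. Mcemp1, a membrane protein gene of mast cells and myeloid cells, had 31.1, 37.6 and 26.8 CPM in RIP1i and 31.4, 29.2 and 36.6 CPM in DMSO. Of these, Trem3 spanned 2.999-fold over the libraries and Mcemp1 only 1.404-fold, in 1 and the same order. Hdc, encoding histidine decarboxylase, which basophils and mast cells also express, had 4.76, 4.54 and 6.23 CPM in RIP1i and 6.77, 3.96 and 6.28 CPM in DMSO and did not keep it.

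Padi4 and Ifitm6 lay lower with RIP1i without passing. Padi4, encoding the enzyme that citrullinates histones in neutrophil extracellular traps, had 11.7, 11.3 and 11.7 CPM in RIP1i replicates 1 to 3 and 13.8, 13.8 and 14.9 CPM in DMSO replicates 1 to 3. No RIP1i library reached a DMSO library, and the within-group SD of 0.051 on the log2 scale was small beside the log2 fold change of -0.29 ± 0.061 (SE, edgeR adjusted p = 0.777, from 0.602 to 0.998 under the alternatives). Ifitm6, an interferon-induced transmembrane family gene of myeloid cells, had 12.9, 10.05 and 15.3 CPM in RIP1i and 16.3, 17.7 and 15.03 CPM in DMSO. RIP1i replicate 3 lay above DMSO replicate 3, and the log2 fold change was -0.36 ± 0.14 (SE, edgeR adjusted p = 0.777), or -0.22 without RIP1i replicate 2. Unlike the granule genes, neither was highest in RIP1i replicate 2.

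Of the genes shared with activated monocytes and macrophages, Clec5a and Anxa1 varied little between libraries of a group, with within-group SDs of 0.036 and 0.095 on the log2 scale, and Trem1 varied more, at 0.19. Clec5a, encoding a DAP12-coupled lectin receptor, had 178, 172 and 180 CPM in RIP1i replicates 1 to 3 and 175, 182 and 173 CPM in DMSO replicates 1 to 3, with a log2 fold change of -0.00080 and a 95% interval from -0.091 to 0.090. Anxa1, encoding annexin A1, a mediator that limits neutrophil recruitment, had 1353, 1280 and 1512 CPM in RIP1i and 1183, 1276 and 1221 CPM in DMSO. All RIP1i libraries of Anxa1 lay above all DMSO libraries, RIP1i replicate 2 and DMSO replicate 2 nearly meeting, which was the case for 7.36% of all tested genes. Its log2 fold change was 0.17 ± 0.069 (SE, edgeR adjusted p = 0.777), and 0.098 without RIP1i replicate 3. Slpi, an inhibitor of elastase and cathepsin G, had 58.7, 49.4 and 59.5 CPM in RIP1i and 58.7, 63.7 and 60.2 CPM in DMSO. Trem1, a receptor that amplifies inflammatory signals, had 13.1, 16.9 and 12.1 CPM in RIP1i and 12.8, 13.5 and 15.1 CPM in DMSO. The groups overlapped in both genes.

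**Figure D3:**
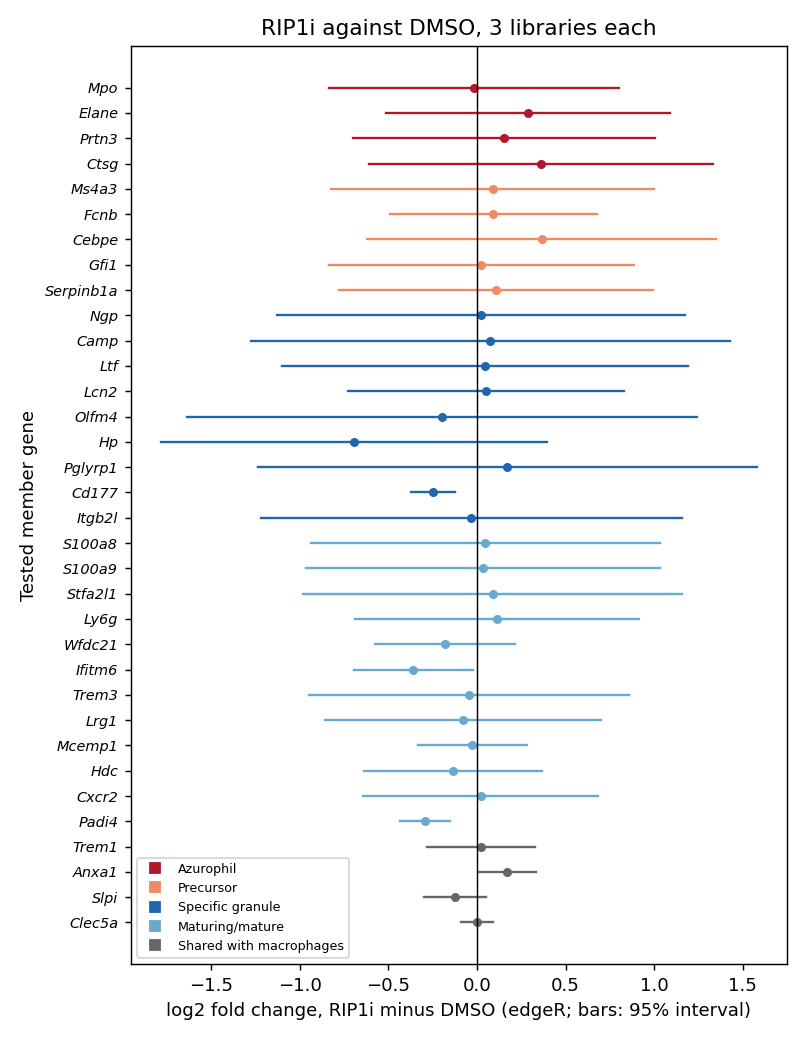
Log2 fold change, RIP1i minus DMSO, with its 95% interval from edgeR for the 34 tested members, coloured by role. The intervals of Cd177, Padi4, Ifitm6 and Anxa1 leave out 0 before adjustment, while those of the granule genes reach from about 1 below 0 to about 1 above it for Ngp, Ltf and S100a9.

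Most members followed 1 order of libraries. The order of RIP1i replicate 2 over 1 over 3 and DMSO replicate 3 over 1 over 2, read off after the values were seen, held for 23 of 34 members, against 7.95% of all tested genes. It held for 3 of 4 azurophil enzymes, 5 of 5 precursor genes, 7 of 9 specific granule genes, 8 of 12 maturing and mature genes, and 0 of 4 genes shared with macrophages. The reverse order held for Hp, Ifitm6 and Clec5a, against 10.7% of all tested genes, and 8 members had neither. The looser pattern of RIP1i replicate 2 over 3 with DMSO replicate 3 over 2 held for 26 members, against 30.9% of all tested genes. Over the 6 libraries, the median Pearson r of log2 CPM was 0.81 over the 561 pairs of members and 0.00040 over all pairs of tested genes, and r was at least 0.9 for 30.8% of member pairs against 1.53% of all pairs. These are descriptions over libraries that share 1 culture protocol and 2 treatments. Within classes the median was 0.88 for azurophil enzymes, 0.91 for precursor genes, 0.90 for specific granule genes and 0.73 for maturing and mature genes, but -0.20 for the genes shared with macrophages.

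The granule genes differed between libraries of the same group. Within-group SDs on the log2 scale were 0.88 for Ngp, 0.89 for Camp, 0.87 for Ltf, 0.74 for S100a9 and 0.61 for Serpinb1a, against a median of 0.097 over all tested genes. An SD of at least 0.5 was found in 14 members and in 1.89% of all tested genes. The within-group SD was larger than the absolute log2 fold change in 29 of 34 members, against 58.5% of all tested genes. Counting alone would give Ngp an SD of 0.031 and Camp one of 0.14. These counting SDs have nothing added to the counts, while the within-group SDs are of log2(CPM + 0.5), which narrows the spread of the lowest genes. When each member was set beside the 500 tested genes nearest to it in mean level, 20 of 34 had a within-group SD above 90% of those genes.

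**Figure D4:**
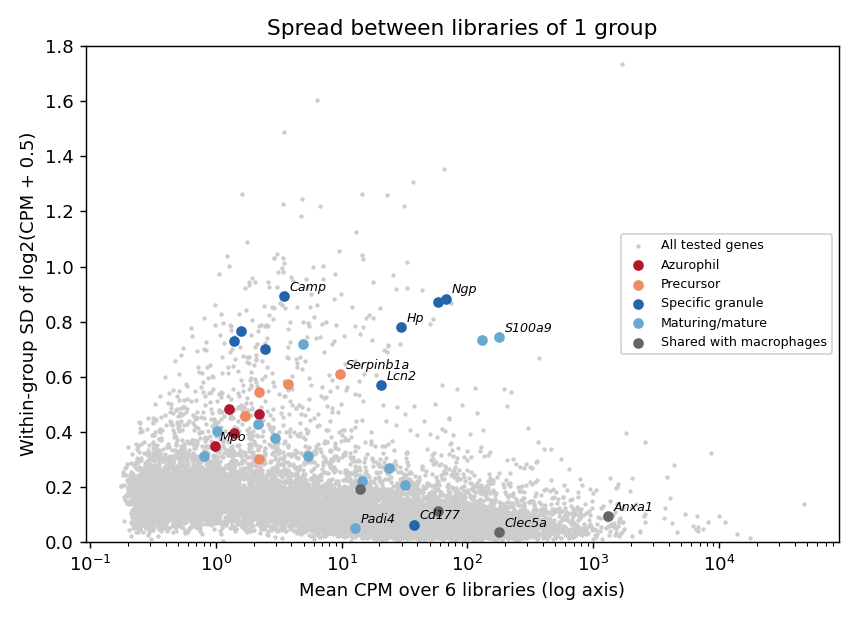
Within-group SD of log2(CPM + 0.5) against mean CPM (log axis) for all tested genes in grey and the 34 tested members in the colours of their roles. Ngp, Camp, Hp and S100a9 stand far above genes of like level, while Padi4, Cd177 and Clec5a lie among or below them.

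Early and late classes kept the same order of libraries within each group, but not by like amounts. For each class, log2(CPM + 0.5) was centred gene by gene on the 6-library mean and then averaged over the genes of the class. The azurophil level was 0.076, 0.55 and -0.47 in RIP1i replicates 1 to 3 and -0.051, -0.32 and 0.21 in DMSO replicates 1 to 3. The specific granule level was 0.14, 0.36 and -0.57 in RIP1i and 0.18, -0.57 and 0.47 in DMSO, so that both classes were highest in RIP1i replicate 2 and DMSO replicate 3 within their groups. From lowest to highest library the azurophil level spanned 1.03 in RIP1i and 0.53 in DMSO, and the specific granule level 0.93 and 1.04. The specific granule level includes Hp, which ran the other way, and Cd177, which varied little. Both narrow its span, so these spans do not rank the classes by how far their genes moved. The 0.5 added to CPM narrows the level of genes near 1 CPM, such as the azurophil enzymes. The early level, over azurophil and precursor genes, minus the late level, over specific granule and maturing genes, was -0.0048, 0.24 and 0.042 in RIP1i and -0.16, -0.050 and -0.065 in DMSO. RIP1i lay above DMSO in all libraries by this measure, with a mean difference of 0.18. When Hp, Cd177, Padi4 and Ifitm6 were left out of the late level, after their values were seen, the same quantity was -0.046, 0.060 and 0.16 in RIP1i and -0.15, 0.15 and -0.17 in DMSO, the groups overlapped and the difference was 0.11.

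**Figure D5:**
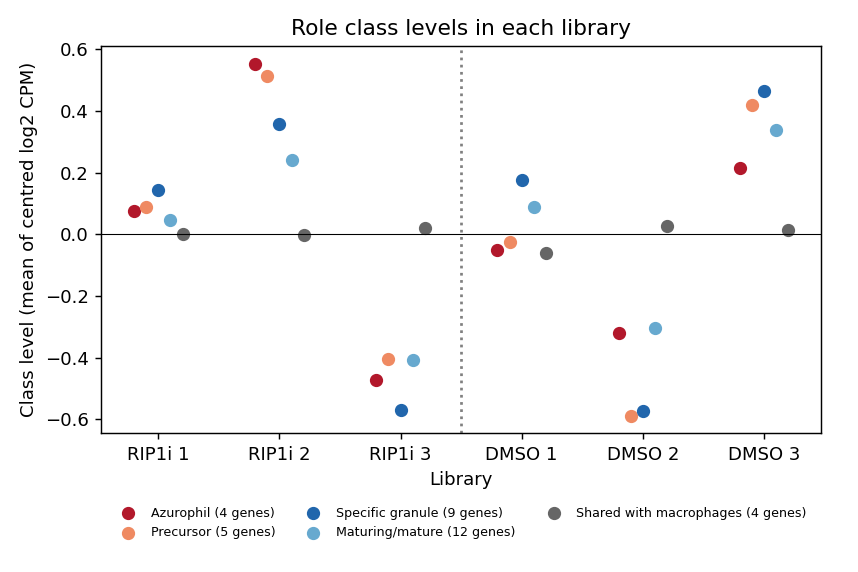
Level of each role class (mean of centred log2 CPM over its genes) in the RIP1i libraries on the left and the DMSO libraries on the right of the dotted line. The azurophil, precursor, specific granule and maturing classes lie high in RIP1i replicate 2 and DMSO replicate 3 and low in RIP1i replicate 3 and DMSO replicate 2, while the class shared with macrophages stays between -0.060 and 0.028. That class averages genes that ran opposite ways, Trem1 and Clec5a having a Pearson r of -0.72 over the 6 libraries.

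Per length, late granule transcripts outweighed early ones in all 6 libraries. The FPKM of the 4 azurophil enzymes summed to 4.45, 6.77 and 2.43 in RIP1i replicates 1 to 3 and 3.88, 2.84 and 4.73 in DMSO replicates 1 to 3. Ngp, Camp and Ltf summed to 80.7, 115 and 39.0 FPKM in RIP1i and 87.9, 30.2 and 111 FPKM in DMSO. The ratio of the late to the early sum was 18.1, 16.9 and 16.04 in RIP1i and 22.7, 10.6 and 23.5 in DMSO. The RIP1i ratios lay inside the range of the DMSO ratios, and DMSO replicate 2 had the lowest ratio as well as the lowest late sum.

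Other genes of the neutrophil programme, a list of 28 of which 26 were tested, gave 0 calls, with 12 fitted higher and 14 lower in RIP1i and a median log2 fold change of -0.0088. The library order of the granule genes held for 15 of these 26, against 7.95% of all tested genes. The reverse order held for 4 of them, Cxcr4, Ncf1, Cybb and Srgn, against 10.7% of all tested genes. Chil1, encoding a chitinase-like protein of specific granules, and Il1r2, the decoy receptor for IL-1, were chosen after their values were seen. Chil1 had 1.141, 3.21 and 0.362 CPM in RIP1i replicates 1 to 3 and 0.989, 0.124 and 1.77 CPM in DMSO replicates 1 to 3. Il1r2 had 18.4, 33.1 and 11.4 CPM in RIP1i and 14.98, 12.8 and 22.6 CPM in DMSO. The members of this list with the smallest p lay lower in RIP1i, namely Csf3r, the G-CSF receptor gene, at a log2 fold change of -0.20 ± 0.070 (SE), the formyl peptide receptor genes Fpr1 at -0.36 ± 0.14 and Fpr2 at -0.27 ± 0.11, and Lyz1, all with an edgeR adjusted p of 0.777. Lyz1, a lysozyme gene whose reads may be shared with the far more abundant Lyz2, stood at 25.3, 31.2 and 32.5 CPM in RIP1i and 39.7, 140 and 34.7 CPM in DMSO, so DMSO replicate 2 stood apart. Bpi, another azurophil protein gene, had 0 counts in every library.

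Of 16 tested progenitor genes, 0 were called, 7 were fitted higher and 9 lower in RIP1i, and the order held for 2 of them. Cd34, a progenitor surface antigen gene, had a log2 fold change of 0.23 ± 0.095 (SE, edgeR adjusted p = 0.777). Of 10 tested mast cell, basophil and eosinophil markers, 5 kept the granule order, as did 4 of 8 dendritic cell markers. The granule order held for 4 of 10 macrophage markers and 0 of 8 stromal markers, against 7.95% of all tested genes. The reverse order held for 3 macrophage markers, Csf1r, Lyz2 and Cd14, and for 1 stromal marker, against 10.7% of all tested genes. It held for 0 dendritic cell markers and 0 mast cell, basophil and eosinophil markers. The dendritic cell markers summed to 6160, 6961 and 6213 CPM in RIP1i replicates 1 to 3 and 5419, 5387 and 6427 CPM in DMSO replicates 1 to 3. Within each group the sum was highest where the granule genes were highest, but its lowest RIP1i library was replicate 1 and not replicate 3. In RIP1i replicate 2, Cd74, Itgax and H2-Ab1 had 4263, 1402 and 1199 of the 6961 CPM. All 8 stromal markers were fitted lower in RIP1i, against 49% of all tested genes, with 0 called by edgeR. Their sum was 232, 79.8 and 178 CPM in RIP1i and 200, 350 and 84.6 CPM in DMSO, so the groups overlapped. Stromal markers were lowest in RIP1i replicate 2 and DMSO replicate 3 within their groups, where the granule genes were highest, and the part of cell composition in the granule levels was not tested.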

How the data were processed

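RNA was sequenced from 6 macrophage libraries, 3 RIP1i and 3 DMSO, grouped by the treatment in their labels. The authors deposited raw read counts per gene and, for the same genes, FPKM values rounded to 2 decimals, which were proportional to the counts. The submitters' processing notes list STAR 2.5.3a with CASAVA 1.8.4, also Subread 1.4.6-p3 with featureCounts, DESeq2 1.14.0 and the build mm10, and give no role or order for any. Annotation and strand setting: not given in the sources used here. In all, 8 members overlap another gene in GENCODE M21, so those counts may hold reads of the other gene.

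Genes were filtered with filterByExpr of edgeR (minimum count 10, minimum total 15), scaled by TMM and tested with the quasi-likelihood test from edgeR 4.0.16 (R 4.3.3). The model held treatment alone, tests were two-sided, and p-values had Benjamini-Hochberg adjustment over all 14857 genes at 0.05. Library totals of 40264902 to 44862310 counts limit precision mainly for the weakest members. SE and 95% interval come from the F statistic. CPM uses the TMM-scaled library size, and class levels use members with a mean of at least 10 counts. Alternatives used DESeq2 1.42.0, limma 3.58.1, other scalings, filters and pseudocounts, FPKM, a replicate block and left-out libraries, and the fit was tested on simulated data. All 35 members are accounted for, with values in every library for tested members of mean CPM at least 1 and for azurophil and specific granule genes, and other lists give the genes with the smallest p or those needed beside a result. The members and lists were chosen with earlier results of these data known.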

Additional observations from a re-analysis of the deposited data

How the results depend on the processing

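No member was called under any of the alternatives run, and the smallest adjusted p of a member was 0.257. Over all genes DESeq2 called 2 and limma-trend on unfiltered log2(FPKM + 1) called 4, against 0. The other scalings changed no member's direction. S100a9, at 0.032, was -0.0052 with limma-voom, -0.0083 with log2(FPKM + 1), with or without a filter, and -0.0085 with log2(FPKM + 0.1). Same-numbered replicates did not deviate together (r = -0.023, -0.60 and -0.56), so the numbers were not taken as pairs, and with the replicate block 0 members were called and Olfm4 was at 0.035. With single libraries left out, or DMSO replicate 2 and RIP1i replicate 2 together, between 3 and 26 members were fitted higher. The joint omission was chosen after the data were seen, for the stromal levels, and takes away the top RIP1i and the bottom DMSO library of the granule order, so it had to lower the granule differences. For reversals under other methods, and for those of genes outside the granule order, the cause was not tested. Among genes in that order, leaving out replicate 2 of either group had likewise to lower the difference. Leaving out replicate 3 of either group had to raise it. Log2 fold changes then ran from -1.04 to 0.19 for Hp, -0.93 to 0.37 for Itgb2l, -0.86 to 0.71 for Olfm4, -0.82 to 0.79 for Pglyrp1, -0.76 to 0.46 for Camp, -0.74 to 0.39 for Ngp, -0.73 to 0.41 for Ltf, -0.65 to 0.37 for S100a8, -0.64 to 0.39 for S100a9, -0.62 to 0.36 for Ms4a3, -0.59 to 0.20 for Lrg1, -0.58 to 0.27 for Gfi1, -0.58 to 0.29 for Trem3, -0.55 to 0.42 for Serpinb1a, -0.55 to 0.28 for Mpo, -0.49 to 0.42 for Prtn3, -0.49 to 0.48 for Stfa2l1, -0.45 to 0.26 for Cxcr2, -0.44 to 0.30 for Lcn2, -0.34 to 0.0018 for Hdc, -0.26 to 0.33 for Ly6g, -0.25 to 0.080 for Mcemp1, -0.24 to 0.57 for Elane, -0.23 to 0.72 for Ctsg, -0.21 to 0.32 for Fcnb, -0.18 to 0.96 for Cebpe, -0.16 to 0.12 for Trem1 and -0.020 to 0.027 for Clec5a. Depth limits the members with the fewest reads, among them Retnlg, Ly6g, Mpo, Trem3 and Pglyrp1.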
